A study of Mus musculus with 4 samples.

Results

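The genes described here make sterols and fatty acids. They were 35 genes chosen by function, found on the arrays by the gene name of the probe or by the current symbol of its accession, out of 27734 gene names on the array. Of the 35, 19 belong to the sterol branch, 11 to the fatty acid branch and 5 are regulators shared by both. Their transcripts were measured in small-intestinal epithelial cells of mice. The epithelium of IKKb(EE)IEC mice has IKKb, a kinase upstream of NF-kB, in a permanently active form, and 2 samples of these mice were set against 2 of wild-type (WT) mice, each on 1 single-colour microarray. The WT mice were littermates and the cells came fresh from the small bowel. The transgene promoter, the strain, the age and how many mice make up a sample are not stated in the labels used here. The series text calls the 2 samples of a genotype biological replicates.

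Cells build cholesterol from acetyl-CoA. HMG-CoA synthase and its followers form mevalonate and then isoprenoids, squalene synthase joins these into squalene, and squalene epoxidase, lanosterol synthase and a series of demethylation, reduction and isomerisation steps lead to cholesterol. Fatty acids start from the same acetyl-CoA, which ATP citrate lyase and acetyl-CoA synthetase supply and acetyl-CoA carboxylase and fatty acid synthase convert to palmitate, before elongases and desaturases act. Both branches are under the transcription factors SREBP-1 and SREBP-2, which are held in the endoplasmic reticulum with SCAP by the INSIG proteins while sterols are plentiful. The intestinal epithelium is a major site of sterol synthesis as well as of lipid absorption.

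Part of the sterol branch was higher in IKKb(EE)IEC cells. Hmgcs1, Mvd, Fdft1, Sqle, Cyp51, Msmo1 and Hsd17b7 rose by 1.06 to 1.89 on the log2 scale, that is 2.09-fold to 3.70-fold. Fdps was 1.19 higher without passing the test, and the 10 other sterol members lay between -0.30 and 0.32. Sizes depended on the values used: in the authors' value table Cyp51 was at 0.45, Fdft1 at 0.69, Mvd at 0.85, Insig1 at 0.89 and Scd2 at 1.07, and the sterol members ran without a gap. The regulators Srebf2 and Insig1 rose, and Scd2 alone among the fatty acid genes did. In all, 10 of the 32 measured members passed as higher (limma, adjusted p below 0.05) and none as lower, with Acaca and Insig2 lower at an unadjusted p below 0.05. Over the 12446 genes tested, 7.97% were higher and 7.17% lower by the same rule (limma, Benjamini-Hochberg adjustment over all genes). At an unadjusted p below 0.05 in limma, 2057 of these genes were higher and 2688 lower. By branch, 7 of 18 sterol members, 2 of 5 regulators and 1 of 9 fatty acid members were higher. The calls needed both IKKb(EE)IEC arrays, since most or all of the 10 missed the threshold when either was removed. Without IKKb(EE)IEC replicate 1 the 10 lay between 1.29 and 1.97, and without replicate 2 between 0.84 and 2.32. With normexp background correction, which left 0 calls among all genes, 0 of the 10 passed and 1 had an unadjusted p below 0.05. Where a genotype is left with 1 array, limma takes the spread from the other genotype alone. Without WT replicate 1, 2628 of all genes passed as higher and 3534 as lower, and without WT replicate 2, 1911 and 2262, so only values are given below for those settings. All 10 kept a positive sign in each of the 14 alternatives, which for the removal of 1 array follows from groups that do not overlap.

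All values below are log2 of the scanner's processed signal after subtraction of the 75th percentile of its array, and a fold change is the mean of the IKKb(EE)IEC arrays minus that of the WT arrays, with its standard error (SE) from limma. A probe had to be flagged well above background on 2 or more of the 4 arrays to enter, as 50 of the 70 probes of these genes were. All 10 members that passed the test were well above background on all 4 arrays. With 2 arrays a genotype the smallest share a permutation test can give is 33.3%, so none can reach 0.05. The 75th percentile was 94.6 to 107.8 on the IKKb(EE)IEC arrays and 60.3 to 66.1 on the WT arrays. The 2 IKKb(EE)IEC arrays correlated at 0.994 over the genes tested, the 2 WT arrays at 0.978 and arrays of different genotype at 0.937 to 0.947. All arrays lie on 1 slide, with IKKb(EE)IEC at positions 3 and 4 and WT at positions 1 and 2, so position and genotype cannot be told apart. Ikbkb itself, the gene of the activated kinase, was at 0.33 and 0.34 in IKKb(EE)IEC and -0.72 and -0.27 in WT, and missed the threshold (0.83 ± 0.21, adjusted p = 0.0551). In bulk samples of this kind, fewer cells of a type and less RNA per cell cannot be told apart.

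The promoters of the members that rose most are shown because both branches have SREBP as a known regulator. The part of SREBP in these rises was not tested. They come from RefSeq on GRCm38.p6 and span 250 bases before to 50 bases after the start of the gene, and 28 of the 35 members had at least 1 entry. The 6 with the largest rises among those that had an entry are given, and Scd2, Fdft1 and Sqle had none. Hmgcs1 lies at chr13:119690101-119690400 (+ strand), Srebf2 at chr15:82147019-82147318 (+ strand), Hsd17b7 at chr1:169969156-169969455 (- strand), Insig1 at chr5:28071162-28071461 (+ strand), Mvd at chr8:122443373-122443672 (- strand) and Msmo1 at chr8:64733529-64733828 (- strand). Capitals mark matches, on either strand, to the sterol regulatory element TCACNCCAC or to the NF-Y motif CCAAT.
Hmgcs1: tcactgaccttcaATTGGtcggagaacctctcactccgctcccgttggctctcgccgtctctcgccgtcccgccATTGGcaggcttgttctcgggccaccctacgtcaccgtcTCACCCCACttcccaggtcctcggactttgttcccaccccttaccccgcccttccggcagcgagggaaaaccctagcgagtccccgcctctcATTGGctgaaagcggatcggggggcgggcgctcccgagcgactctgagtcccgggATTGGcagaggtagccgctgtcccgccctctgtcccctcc
Srebf2: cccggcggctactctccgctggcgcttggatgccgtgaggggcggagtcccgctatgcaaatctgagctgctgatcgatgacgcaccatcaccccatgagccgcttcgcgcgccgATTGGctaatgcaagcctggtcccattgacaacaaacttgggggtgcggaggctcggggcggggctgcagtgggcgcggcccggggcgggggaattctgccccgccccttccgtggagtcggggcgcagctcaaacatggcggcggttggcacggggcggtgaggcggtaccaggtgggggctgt
Hsd17b7: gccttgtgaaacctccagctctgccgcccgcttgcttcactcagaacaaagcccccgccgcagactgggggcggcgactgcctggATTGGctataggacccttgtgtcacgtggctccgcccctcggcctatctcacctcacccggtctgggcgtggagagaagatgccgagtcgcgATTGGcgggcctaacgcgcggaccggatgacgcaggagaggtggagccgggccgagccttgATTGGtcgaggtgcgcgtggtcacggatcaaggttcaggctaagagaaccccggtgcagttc
Insig1: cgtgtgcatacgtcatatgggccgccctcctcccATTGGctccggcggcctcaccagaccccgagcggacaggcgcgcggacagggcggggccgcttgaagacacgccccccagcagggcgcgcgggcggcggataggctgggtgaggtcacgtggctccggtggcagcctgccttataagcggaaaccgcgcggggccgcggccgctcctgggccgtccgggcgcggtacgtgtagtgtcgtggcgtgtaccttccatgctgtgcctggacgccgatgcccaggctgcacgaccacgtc
Mvd: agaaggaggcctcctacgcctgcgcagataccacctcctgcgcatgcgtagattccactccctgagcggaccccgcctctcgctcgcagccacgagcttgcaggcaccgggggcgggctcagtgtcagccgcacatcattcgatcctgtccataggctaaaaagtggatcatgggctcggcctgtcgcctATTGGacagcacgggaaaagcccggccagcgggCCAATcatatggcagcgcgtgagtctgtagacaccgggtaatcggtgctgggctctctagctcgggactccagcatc
Msmo1: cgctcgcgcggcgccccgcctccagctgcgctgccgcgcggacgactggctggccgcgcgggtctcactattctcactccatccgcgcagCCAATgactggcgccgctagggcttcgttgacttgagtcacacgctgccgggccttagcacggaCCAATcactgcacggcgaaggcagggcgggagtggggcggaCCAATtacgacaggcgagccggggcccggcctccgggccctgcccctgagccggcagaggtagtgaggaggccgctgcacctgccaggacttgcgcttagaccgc
The Hmgcs1 window held 1 sterol regulatory element, at position -137 relative to the start of the gene, and 4 CCAAT motifs. The Srebf2 and Insig1 windows held 1 CCAAT motif each, that of Mvd 2 and those of Hsd17b7 and Msmo1 3 each. CCAAT occurred for 7 of the 7 members that rose and had an entry, and for 15 of the 20 measured members that did not pass and had an entry. Over all 32841 promoter windows of the same length, 37.4% held CCAAT and 1.24% the sterol regulatory element, and genes with several starts have several windows. The element in these exact letters was found for Hmgcs1 alone among the members. A motif named for NF-kB, searched on both strands, was present for 0 of the 7 that rose and 6 of the 20 that did not pass, against 4.51% of all windows. Those 7 have 7 windows and those 20 have 28, so counts by gene and shares of windows are unlike measures, for CCAAT as well. At so low a share, 7 windows are too few to show a contrast. These are matches of letters, and no binding was measured.

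Within the sterol branch, Hmgcs1 had the largest rise in the reported setting and in each of the 14 alternatives. Hmgcs1, which condenses acetoacetyl-CoA to HMG-CoA, was at 5.21 and 5.38 in IKKb(EE)IEC and at 3.64 and 3.17 in WT (log2 signal). Both IKKb(EE)IEC arrays lay above both WT arrays, and the rise was 1.89 ± 0.22 (adjusted p = 0.00864 by limma). Its other 2 probes were not well above background in WT and were at least 3.50-fold and 3.36-fold higher. Such a bound sets the IKKb(EE)IEC mean against the higher of the WT value and the lowest signal well above background on the same array. Where both WT values exceed that lowest signal, the measured fold change is given instead. Neither value allows for the spread between arrays. The files place the Hmgcs1 probe on an unplaced part of chromosome 13 (13_random, 114807 to 114866, mm8). Acat2, the cytosolic thiolase that makes acetoacetyl-CoA, was at 2.48 and 2.57 in IKKb(EE)IEC and 2.81 and 2.70 in WT and did not pass (-0.23 ± 0.17, adjusted p = 0.347). Its probe lists a further RefSeq accession, and its part in the signal was not tested.

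Of the genes that turn mevalonate into isoprenoids, Mvd rose and its neighbours did not pass. Mvd, the decarboxylase that makes isopentenyl pyrophosphate, was at 1.07 and 1.53 in IKKb(EE)IEC and at -0.17 and -0.14 in WT. The WT arrays lay close together and below both IKKb(EE)IEC arrays (1.46 ± 0.21, adjusted p = 0.0162, limma). The 2 kinases that come before it, Mvk and Pmvk, gave 0.32 ± 0.29 and 0.31 ± 0.23, with overlapping arrays. Mvk was well above background on both IKKb(EE)IEC arrays and 1 WT array. Idi1, the isomerase, gave 0.30 ± 0.17 and its second probe 0.48. The files place both Idi1 probes on chromosome 2, while RefSeq has the gene on chromosome 13, and whether they read a copy of the gene was not tested. Fdps, which makes farnesyl pyrophosphate, was at 0.34 and 1.03 in IKKb(EE)IEC and -0.78 and -0.24 in WT. It was 2.28-fold higher and missed the threshold (1.19 ± 0.31, adjusted p = 0.0564), although its arrays did not overlap. Its second probe was not well above background in WT, with a measured mean 2.28-fold higher. Fdps passed under 5 of the alternatives that used all 4 arrays, and its value was 0.92 without WT replicate 1 and 1.46 without WT replicate 2.

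Both enzymes that open the path from farnesyl pyrophosphate to sterols rose. Fdft1, squalene synthase, was at 0.52 and 0.69 in IKKb(EE)IEC and at -0.88 and -0.76 in WT (1.42 ± 0.17, adjusted p = 0.00993). Sqle, the epoxidase that is a control point of the pathway, was at 2.37 and 2.53 in IKKb(EE)IEC and at 1.18 and 1.10 in WT (1.31 ± 0.17, adjusted p = 0.0121). For both genes the replicates of a genotype lay much closer to each other than to the other genotype. Lss, lanosterol synthase, was not measured, since none of its 3 probes was well above background on more than 1 array. Its brightest signals came from IKKb(EE)IEC, where 2 probes were well above background on 1 array each. By the rule of the bounds above these were 1.99-fold and 1.70-fold higher, with no test. Neither is a lower bound, since 1 IKKb(EE)IEC array of each was itself not well above background. The third probe, well above background on none, gave 0.28.

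From lanosterol to cholesterol, 3 genes rose and the other 5 enzymes did not pass. Hsd17b7, the 3-ketosteroid reductase of the C4 demethylation complex, was at 2.58 and 2.59 in IKKb(EE)IEC and at 0.94 and 0.81 in WT. It had the smallest adjusted p of all members (1.71 ± 0.17, adjusted p = 0.00506, limma), and its second probe, well above background on 1 WT array, gave 1.98. Msmo1, the methylsterol oxidase listed as Sc4mol in the files, was at 5.89 and 6.25 in IKKb(EE)IEC and at 4.80 and 4.57 in WT (1.38 ± 0.21, adjusted p = 0.0171). Both act on the C4 methyl groups, as does Nsdhl, which gave 0.27 ± 0.23 with overlapping arrays. Nsdhl had 2 further probes not well above background in WT, with measured means 1.43-fold and 1.50-fold higher. Cyp51, lanosterol 14-alpha-demethylase, was at -0.05 and 0.39 in IKKb(EE)IEC and at -0.94 and -0.84 in WT (1.06 ± 0.21, adjusted p = 0.0349). Its 2 other probes were not well above background in WT. For 1 the bound was at least 2.84-fold higher, and for the other the measured mean was 3.69-fold higher. In the authors' value table Cyp51 was at 0.45 and missed the threshold (adjusted p = 0.0819).

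None of the last steps passed the test. Ebp, the sterol isomerase, was at 6.60 and 6.85 in IKKb(EE)IEC and 7.16 and 6.90 in WT (-0.30 ± 0.19, adjusted p = 0.297). Sc5d, the C5 desaturase, was at 4.45 and 4.42 in IKKb(EE)IEC and 4.72 and 4.66 in WT (-0.26 ± 0.16, adjusted p = 0.286), and its second probe gave -0.57. Both pairs of arrays were separated, which holds for 40.9% of all genes in this direction and for 28.3% in the other. Tm7sf2, a C14 sterol reductase, gave -0.04 ± 0.16 and Dhcr7, which makes cholesterol from 7-dehydrocholesterol, 0.15 ± 0.23. Stard4, which carries cholesterol between membranes, was at 4.36 and 4.31 in IKKb(EE)IEC and 4.16 and 4.18 in WT (0.16 ± 0.16), and its other 2 probes gave -0.15 and -0.06.

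**Figure D1:**
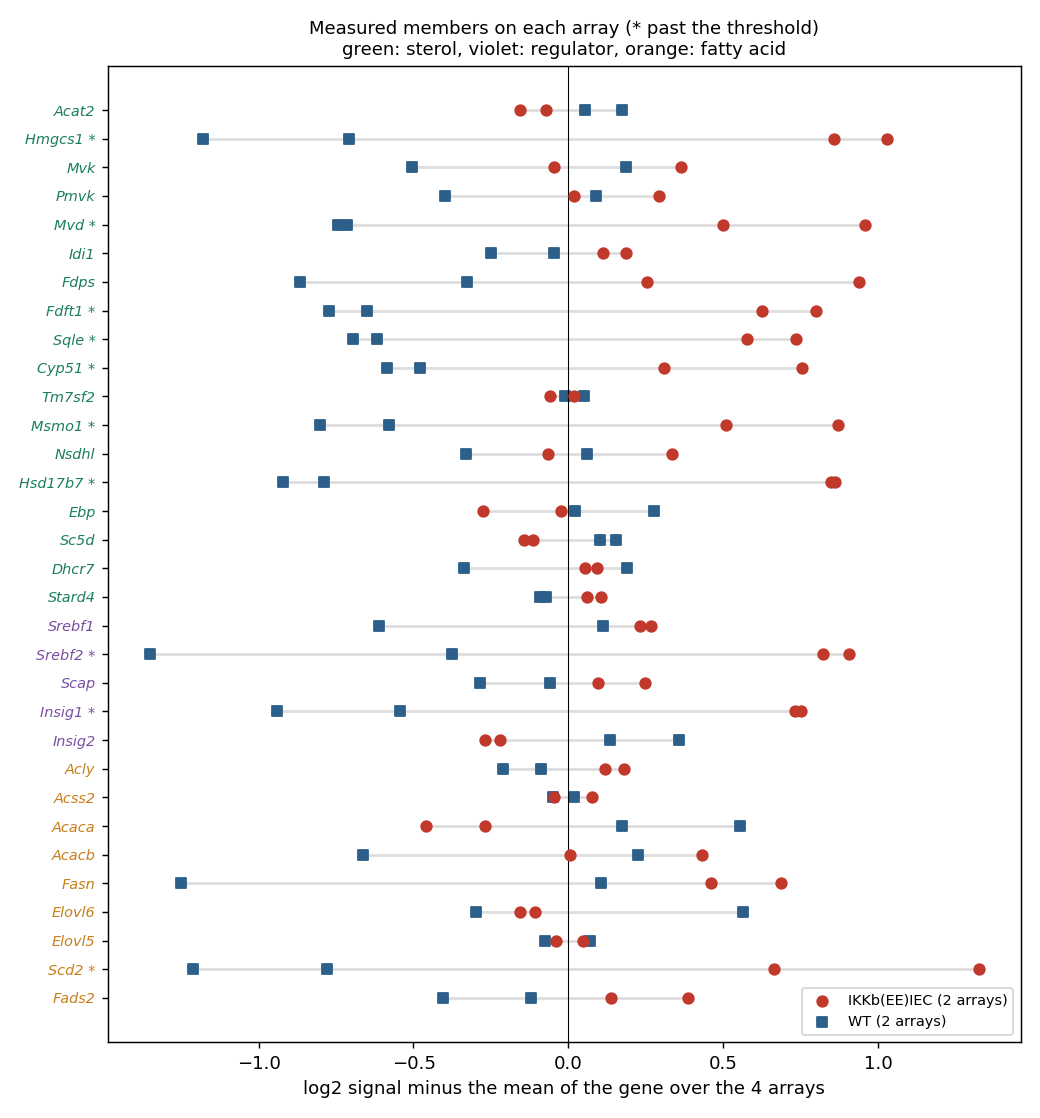
Each row is a measured member in pathway order, and each point is an array, as log2 signal minus the mean of the gene over the 4 arrays (circles: IKKb(EE)IEC, squares: WT). For the 10 members marked with an asterisk the IKKb(EE)IEC circles lie right of the WT squares with a gap, and WT squares of Fasn, Srebf2 and Elovl6 lie far apart from each other.

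Among the regulators, the sterol-selective factor and a sterol-responsive inhibitor rose. Srebf2, which encodes SREBP-2, the factor that mainly drives sterol genes, was at 3.56 and 3.65 in IKKb(EE)IEC and at 2.36 and 1.39 in WT (1.73 ± 0.34, adjusted p = 0.0332). Its WT arrays lay far apart, and the value was 2.22 without WT replicate 1 and 1.24 without WT replicate 2. A second probe, well above background on all 4 arrays, gave 0.91. Both of these carry the accession of a cDNA clone in the files. Of the 2 probes that carry the RefSeq transcript of Srebf2, 1 was well above background on 1 IKKb(EE)IEC array and the other on none. The first was 2.46-fold higher by the rule of the bounds. That is not a lower bound, since its other IKKb(EE)IEC array was not well above background. Insig1, itself a target of SREBP, was at 1.49 and 1.50 in IKKb(EE)IEC and at 0.21 and -0.19 in WT (1.48 ± 0.20, adjusted p = 0.0135). Its second probe was not well above background in WT, with a measured mean 2.87-fold higher. Insig2, the form that is not induced through SREBP, was at 2.28 and 2.33 in IKKb(EE)IEC and 2.68 and 2.90 in WT, lower on both arrays, and did not pass (-0.49 ± 0.18, adjusted p = 0.106). It was at -0.60 without WT replicate 1 and -0.38 without WT replicate 2.

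Srebf1, which encodes both forms of SREBP-1, was at 2.01 and 2.05 in IKKb(EE)IEC and at 1.89 and 1.17 in WT. It did not pass (0.50 ± 0.27, adjusted p = 0.227), and its value was 0.86 without WT replicate 1 and 0.14 without WT replicate 2. Scap, the sterol-sensing escort of both factors, gave 0.34 ± 0.18 with separated arrays (adjusted p = 0.214). The single Srebf1 probe was not assigned to either form here.

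The fatty acid branch had 1 call, the desaturase gene Scd2. Scd2 makes monounsaturated fatty acids and was at 1.88 and 1.22 in IKKb(EE)IEC and at -0.22 and -0.66 in WT. Its rise of 1.99 ± 0.29, or 3.97-fold, was the largest of all members in the reported setting (adjusted p = 0.0161, limma; chromosome 19, 44359845 to 44359904, mm8). In the authors' value table Scd2 was at 1.07, below Msmo1 at 1.55, Srebf2 at 1.48 and Hsd17b7 at 1.23. Hmgcs1 also exceeded it there. With either normexp setting, Hmgcs1, Srebf2, Msmo1 and Hsd17b7 exceeded Scd2. Without IKKb(EE)IEC replicate 1, Hmgcs1, Srebf2, Hsd17b7 and Mvd did. With the mean of probes Hmgcs1 did, and without WT replicate 1 Srebf2 did. The paralog of Scd2, Scd1, was not measured: its probe was well above background on 1 WT array only, at -2.04 and -3.03 in IKKb(EE)IEC and -1.71 and -0.79 in WT. For Scd1 the measured mean was 2.44-fold lower in the IKKb(EE)IEC arrays, with no test. Whether the 2 probes share signal was not tested.

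Fasn, fatty acid synthase, was at 2.75 and 2.52 in IKKb(EE)IEC and at 2.17 and 0.81 in WT. The IKKb(EE)IEC arrays were close together and the WT arrays far apart, and the 2.21-fold higher mean did not pass (1.14 ± 0.44, adjusted p = 0.124). It was at 1.82 without WT replicate 1 and 0.47 without WT replicate 2, and passed with a shift by the array median (1.20, adjusted p = 0.0025). Acaca, acetyl-CoA carboxylase 1 and the committed step, was at -0.86 and -1.06 in IKKb(EE)IEC and at -0.42 and -0.04 in WT (-0.73 ± 0.21, adjusted p = 0.0667). Acaca was at -0.92 without WT replicate 1 and -0.54 without WT replicate 2, and its second passing probe gave -0.06. Acacb, the mitochondrial carboxylase, was not well above background in WT and did not pass (0.44 ± 0.34, adjusted p = 0.373, limma), with overlapping arrays.

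The acetyl-CoA suppliers Acly and Acss2 gave 0.30 ± 0.17 and 0.03 ± 0.17. The 2 passing Acss2 probes disagreed, at 0.03 and -0.74, and with the mean of all passing probes Acss2 was at -0.36. Of the elongases, Elovl5 gave 0.01 ± 0.17 and Elovl6 -0.27 ± 0.31, with WT arrays of Elovl6 at 2.90 and 2.04. Fads2, the delta-6 desaturase, was at 0.78 and 1.03 in IKKb(EE)IEC and 0.23 and 0.52 in WT (0.53 ± 0.20, adjusted p = 0.117) and was at 0.38 without WT replicate 1 and 0.67 without WT replicate 2. Fads1, the delta-5 desaturase, was not well above background on any array. WT arrays differed more from each other than IKKb(EE)IEC arrays did for 7 of the 9 measured fatty acid members, 5 of the 5 regulators and 9 of the 18 sterol members. The same count over all genes was not made. Over the genes tested the WT arrays also correlated less (0.978) than the IKKb(EE)IEC arrays (0.994), so this is not read as a trait of these members.

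**Figure D2:**
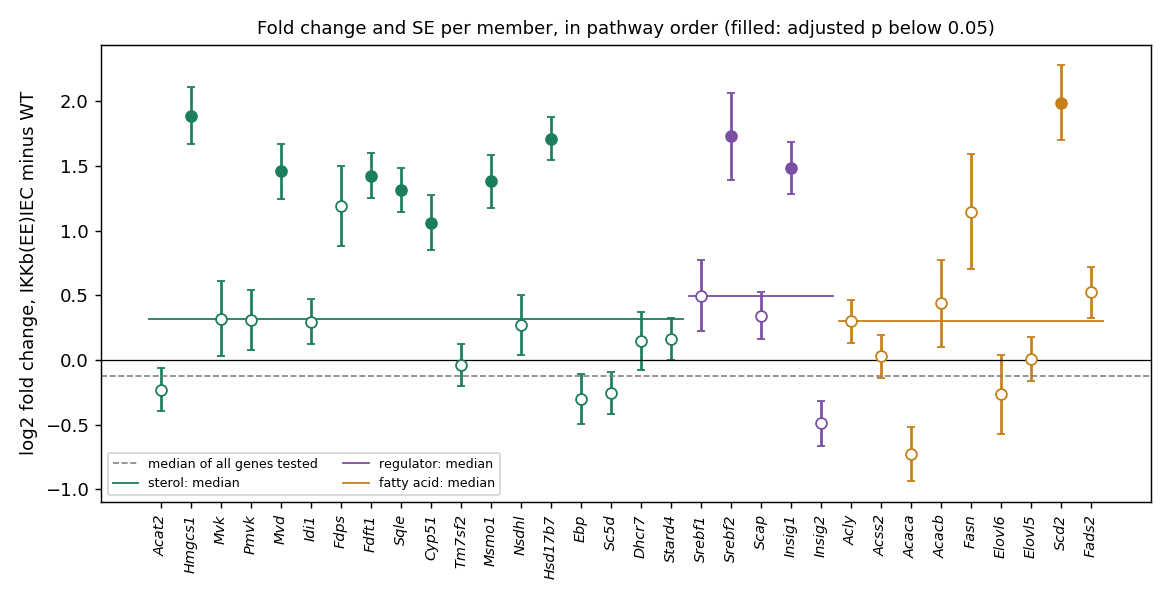
Log2 fold change (IKKb(EE)IEC minus WT) with SE for each measured member in pathway order, filled where the adjusted p is below 0.05, with a line at each branch median and a dashed line at the median of all genes. In the reported setting 8 sterol members lie between 1.06 and 1.89 and 10 between -0.30 and 0.32, and fatty acid members spread between -0.73 and 1.99.

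The 2 branches were then set against each other. The median log2 fold change was 0.32 over the 18 sterol members and 0.30 over the 9 fatty acid members, against -0.12 over all genes tested. The difference of the medians, 0.02, was 0.53 once WT replicate 2 was removed, 0.27 on removal of IKKb(EE)IEC replicate 1 and -0.11 on removal of IKKb(EE)IEC replicate 2. Per array, the sterol median minus the fatty acid median, each taken after removing the mean of the gene, was -0.03 and 0.27 in IKKb(EE)IEC and -0.40 and -0.08 in WT. The lower IKKb(EE)IEC array was just above the higher WT array. No test was run on these medians. At least 2-fold higher were 8 of 18 sterol members, 2 of 5 regulators and 2 of 9 fatty acid members, against 7.17% of all genes, a count chosen after the values were seen. The 8 sterol members are the 7 that passed and Fdps, and no sterol member lay between 0.32 and 1.06 in the reported setting. This gap was not a feature of all settings: 3 of 18 sterol members were at least 2-fold higher in the authors' value table and 5 lay between 0.4 and 1. With normexp after capping the local background, 5 were at least 2-fold higher and 6 lay between 0.4 and 1.

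Several members had more than 1 probe. Of the 14 members with more than 1 passing probe, 12 had probes of the same sign, and Acss2 and Stard4 had both signs. Of the 10 members that rose, 5 had several passing probes (Hmgcs1, Cyp51, Hsd17b7, Srebf2 and Insig1), all positive. Where WT was at background, bounds or measured fold changes are given above. The other 5 rest on a single passing probe (Mvd, Fdft1, Sqle, Msmo1 and Scd2). Over all members, 8 of the 18 further passing probes were not well above background in WT. These 8 passed the filter through the IKKb(EE)IEC arrays alone, so a positive sign was largely set in advance and adds no support. Among them are the further probes of Hmgcs1, Cyp51 and Insig1. A second probe of Fdft1 was below background on all arrays, at -0.50. Signal levels of different probes are not compared here, since each binds with its own strength.

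**Figure D3:**
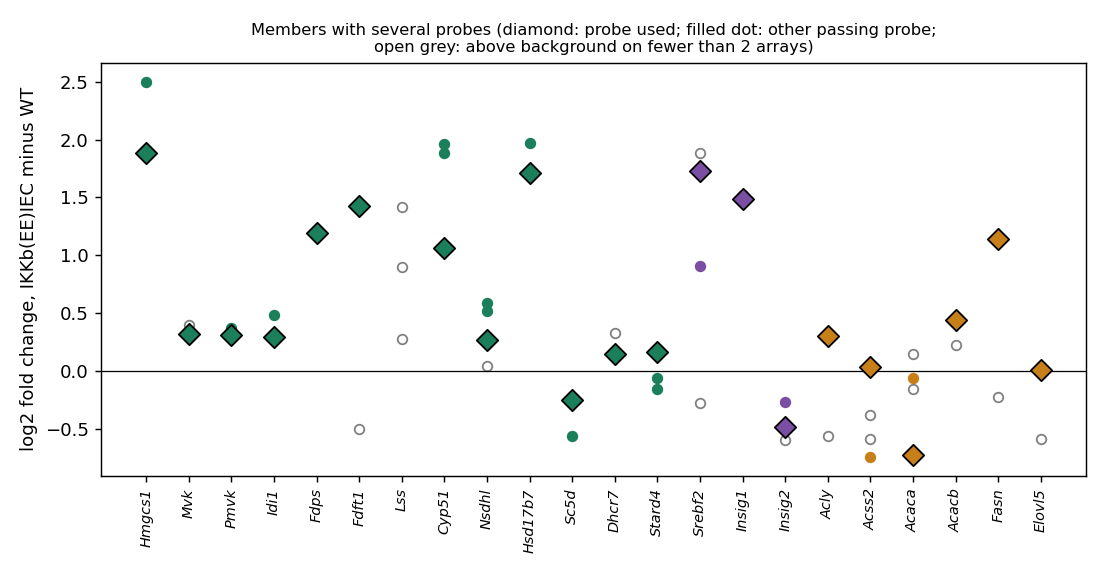
Log2 fold change of every probe of the members with more than 1 probe (diamond: probe used, filled dot: other passing probe, open grey: above background on fewer than 2 arrays). Passing probes of Hmgcs1, Cyp51, Hsd17b7, Srebf2 and Insig1 all lie between 0.91 and 2.50, and those of Acss2 lie at 0.03 and -0.74. Values of probes with WT at background are limited as given in the text.

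Genes that neighbour the pathway were described by list, beside 7.97% higher and 7.17% lower over all genes tested. In lists of this size, 1 or 2 calls are not read as a feature of the list. In the list of isoprenoid side branches and sterol handling, 0 of 12 measured genes rose in limma (0 also at an unadjusted p below 0.05) and 1 fell, Fntb, the beta subunit of farnesyltransferase (-1.90 ± 0.25, adjusted p = 0.0132), with a median of -0.14. The sterol esterification genes Soat1 and Soat2 gave -0.01 ± 0.28 and -0.07 ± 0.22 and Npc1, the lysosomal cholesterol exporter, -0.41 ± 0.21. In the list of SREBP processing and its regulators, 2 of 13 rose and 1 fell. Mlxipl, which encodes the glucose-responsive lipogenic factor ChREBP, rose by 1.15 ± 0.21 (adjusted p = 0.0303, limma). The measured mean of Prkaa2, a catalytic subunit of the AMP-activated kinase, was 2.66-fold higher (adjusted p = 0.0303, limma). Prkaa2 was not well above background in WT and entered through the IKKb(EE)IEC arrays, and with the filter on all 4 arrays it was not measured and 1 gene of the list rose. Erlin1, an endoplasmic reticulum protein that takes part in holding SREBP back, fell by 0.77 on the log2 scale (adjusted p = 0.0409), a call missed under 7 of the 14 alternatives. The proteases that release SREBP, Mbtps1 and Mbtps2, gave 0.20 ± 0.16 and -0.64 ± 0.29.

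Of 15 measured genes for NADPH and citrate supply and lipogenic help, none passed, with a median of 0.15. The smallest p values were those of Oxsm, of mitochondrial fatty acid synthesis (0.55 ± 0.17, adjusted p = 0.0801), and Mid1ip1, an activator of acetyl-CoA carboxylase (0.60 ± 0.20, adjusted p = 0.0939). At an unadjusted p below 0.05, limma had 3 of the 15 higher and 2 lower, beside 2057 and 2688 of all 12446 genes. Of 10 other elongases and desaturases, Elovl7 rose by 1.03 ± 0.18 (adjusted p = 0.0248), and 9 did not pass, with a median of 0.28. Among 18 genes of fatty acid oxidation and PPAR alpha targets, Pdk4, the kinase that shuts pyruvate dehydrogenase, fell by 2.73 ± 0.42 (adjusted p = 0.0184) and Acaa2, a mitochondrial thiolase, by 0.86 ± 0.21 (adjusted p = 0.0497), and none rose (2 were higher at an unadjusted p below 0.05, median -0.22). Acaa2 missed the threshold under 9 of the 14 alternatives. Among 6 measured LXR targets and cholesterol transporters, Arl4c rose by 2.62 ± 0.29 (adjusted p = 0.00728), and Npc1l1, the intestinal cholesterol importer, was at -0.70 ± 0.17 and missed the threshold (adjusted p = 0.0504). In the authors' value table Fntb was at -1.01, Pdk4 at -1.39 and Arl4c at 1.76. With capped normexp, 4 genes of SREBP processing and 3 of fatty acid oxidation rose, and 2 of fatty acid oxidation rose in the authors' value table. Whether the share of rises differed between the members and these lists was not tested.

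**Figure D4:**
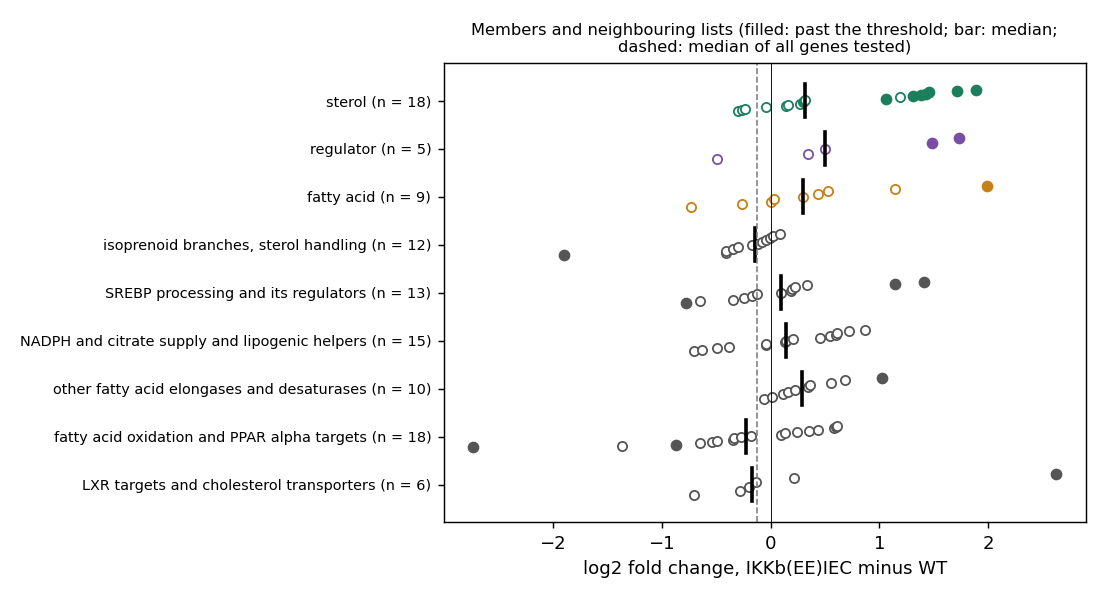
Log2 fold changes (IKKb(EE)IEC minus WT) of the 3 groups of members and 6 neighbouring lists, filled where the adjusted p is below 0.05, with a bar at each median and a dashed line at the median of all genes. The sterol branch has 7 filled points right of 1, and in this setting the lists have at most 2 filled points on that side.

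Markers show what else differed between the samples. All 14 epithelial markers were well above background on at least 1 array, Vil1 at 8.14 and 8.08 in IKKb(EE)IEC and 7.99 and 8.12 in WT. Their summed linear signal, relative to the 75th percentile, was 7503 to 8000 in IKKb(EE)IEC and 15465 to 16906 in WT. Without Fabp2, the brightest of them, the sums were 4930 to 5289 in IKKb(EE)IEC and 7585 to 8961 in WT. The median log2 fold change of the 14 was 0.08, with 8 positive and 6 negative. Fabp1 and Fabp2 fell and the other 12 did not pass. Of 10 measured macrophage and dendritic cell markers, 6 passed as higher and 1 as lower, Lyz2, and Mrc1 was not above background on any array. Of these 6, Adgre1, C1qa, C1qc and Fcgr1 were not well above background in WT and entered through the IKKb(EE)IEC arrays. The list summed to 319 to 323 in IKKb(EE)IEC and 930 to 2440 in WT, nearly all of it Lyz2. Without Lyz2 the sums ran the other way, 23.0 to 29.9 in IKKb(EE)IEC and 8.11 to 9.17 in WT. Hepatocyte markers, 8 of 11 above background on at least 1 array, summed to 2.23 to 2.60 in IKKb(EE)IEC and to 5.49 and 35.6 in WT, with Cyp7a1, Hpx and Ttr above background on none. Of 2 measured hepatocyte markers 1 fell, Mup1, which was not well above background in IKKb(EE)IEC and entered through the WT arrays. Adipocyte markers summed to 31.5 to 34.8 in IKKb(EE)IEC and 26.1 to 49.4 in WT, with Adipoq, Cfd, Fabp4 and Retn above background on none. Without Cidec, the brightest of them, the sums were 5.48 to 6.10 in IKKb(EE)IEC and 6.22 to 6.99 in WT. Of 4 measured adipocyte markers 1 fell, Lep. Of 12 proliferation markers 1 rose, Plk1, with sums of 39.0 to 41.4 in IKKb(EE)IEC and 37.9 to 48.4 in WT. Without Pcna, the brightest of them, the sums were 25.4 to 26.1 in IKKb(EE)IEC and 20.0 to 24.7 in WT. Fold changes were positive for 9 of the 12 and negative for 3. At an unadjusted p below 0.05 in limma, 3 of the 12 were higher and 0 lower, beside 2057 and 2688 of all 12446 genes. Of 5 measured proximal intestine markers 1 rose and 2 fell, with sums of 1369 to 1491 in IKKb(EE)IEC and 2806 to 4677 in WT, and of 8 distal ones 1 rose and 1 fell, with sums of 980 to 1154 in IKKb(EE)IEC and 650 to 843 in WT. Without Guca2a, the brightest distal marker, the sums were 284 to 303 in IKKb(EE)IEC and 411 to 475 in WT. T and NK cell markers had 0 calls among 9 in limma. At an unadjusted p below 0.05, 1 was higher and 3 lower, beside 2057 and 2688 of all 12446 genes. The T and NK cell sums were 103 to 116 in IKKb(EE)IEC and 135 to 168 in WT. Of 6 measured stroma and muscle markers 1 fell, with sums of 29.3 to 31.1 in IKKb(EE)IEC and 30.2 to 35.1 in WT, and Col1a1, Col3a1, Des and Lum were above background on none. Without Acta2, the brightest of these, the sums were 15.8 to 16.6 in IKKb(EE)IEC and 18.6 to 21.3 in WT. Of 3 measured pancreas acinus markers 1 fell, with sums of 27.9 to 31.1 in IKKb(EE)IEC and 200.1 to 455 in WT (11.0 to 12.5 in IKKb(EE)IEC and 16.1 to 16.6 in WT without Clps), and Cela2a, Cpa1, Pnlip and Prss2 were above background on none. The part of these cell types in the rise of the sterol genes was not tested.

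**Figure D5:**
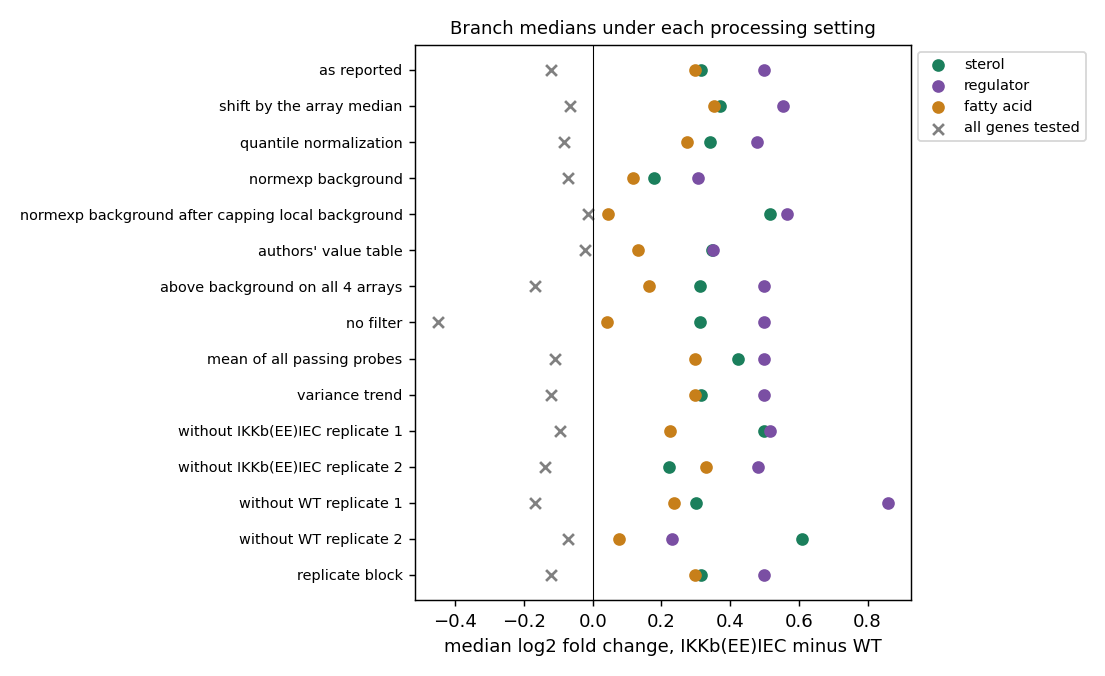
Median log2 fold change (IKKb(EE)IEC minus WT) of the sterol, regulator and fatty acid members and of all genes (crosses) under the reported setting and 14 alternatives. The sterol median ranges from 0.18 to 0.61 and stays right of the cross of its row, and the fatty acid median ranges from 0.04 to 0.35.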

How the data were processed

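Total RNA of small-intestinal epithelial cells (250 ng per sample, made into Cy3-labelled cRNA) was read on arrays of Agilent design 014868. Groups and replicate numbers follow the sample titles. Feature Extraction 9.5.3.1 made the deposited intensities. Per the file headers, these processed intensities have local background and spatial trend removed and no scaling between arrays. The authors' value table gives linear intensities for 40913 probes with array medians of 111.5 to 112, and its scaling method is not stated.

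The 75th percentile of an array was subtracted from its log2 processed signals. Control spots and non-uniform spots (1 to 7 per array) were left out, and spots of a probe were averaged. Of the probes that were well above background on 2 or more arrays, the brightest on average stood for its gene. Symbols follow RefSeq (GRCm38.p6) for the 24375 of 41174 probes matched by accession and 4648 matched by a shared name. Probe positions are the files' own (mm8). The test was two-sided limma (version 3.58.1, R 4.3.3, lmFit and eBayes), adjusted by Benjamini and Hochberg over 12446 genes. It was also run on simulated data that gave both genotypes the same spread. Such data cannot show how the test behaves where the spreads differ. The number of arrays limits precision. The members, neighbouring lists and tests were chosen with earlier results of these data known. All members are named, and from each neighbouring list up to 4 genes that passed with the largest change, or 2 with the smallest p where none did. Ikbkb, Soat1, Soat2, Npc1, Mbtps1, Mbtps2, Npc1l1, Vil1, Fabp1, Fabp2, Lyz2, Plk1, Pcna, Adgre1, C1qa, C1qc, Fcgr1, Guca2a, Clps, Mup1, Lep, Cidec and Acta2 were named after their values were seen. Alternatives covered scaling, background, filter, probe choice, variance trend, replicate block and removal of each array.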

Additional observations from a re-analysis of the deposited data

How the results depend on the processing

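The 10 members that rose passed under the median shift, quantile normalization, the filter on all 4 arrays, the mean of probes, the variance trend, the replicate block and the removal of either WT array, a setting in which limma takes the spread from the IKKb(EE)IEC arrays alone. They numbered 9 in the authors' value table and 9 with normexp after local background was capped, an alternative chosen after seeing the data, where Cyp51 was lost (0.45 and 0.52, adjusted p = 0.0819 and 0.0526, limma). In the authors' value table the 10 spanned 0.45 to 1.86. With no filter 8 passed (Cyp51 and Srebf2 were lost), and 1 of 5 regulators. With plain normexp 0 members and 0 genes passed in either direction by limma, 1 member and 77 genes were higher and 93 genes lower at an unadjusted p below 0.05 (adjusted calls: 0 of the sterol, regulator and fatty acid members), the member median was 0.16, the fatty acid median 0.12 and that of all genes -0.073, and 5 spots on IKKb(EE)IEC replicate 2 and 8 on WT replicate 1 had extreme local background.

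With the median shift, 2 fatty acid members rose, their median was 0.35 and that of all genes -0.067. With capped normexp the sterol median was 0.52, the fatty acid median 0.044, their difference 0.47 and the median of all genes -0.013, a shift of all genes relative to which the changes stand. The fatty acid median was 0.13 in the authors' table, 0.16 with the filter on all 4 arrays and 0.042 with no filter, beside -0.023, -0.17 and -0.45 for all genes, and with no filter the difference of branches was 0.27. Of all genes, 992 were higher and 892 lower as reported, 1263 and 735 with the median shift, 1413 and 559 with capped normexp, and 501 and 342 with no filter. Replicate numbers are only shared labels, so the samples are not paired by design. With the replicate block, 914 genes were higher and 587 lower, and 11 members rose (Fdps, adjusted p = 0.0244, limma). Same-numbered arrays deviated from the means of their genotypes with a correlation of 0.11. The other pairing gave -0.11, which with 2 arrays a genotype follows from the first value.

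Leaving out 1 array gave 0 to 14 members higher and 0 to 2 lower, 0 to 10 sterol members higher, 0 to 3 regulators higher and 0 to 1 lower, 0 to 3 fatty acid members higher and 0 to 2 lower. Medians ranged from 0.22 to 0.61 (sterol), 0.23 to 0.86 (regulators), 0.078 to 0.33 (fatty acid) and -0.17 to -0.073 (all genes), and the difference of branches from -0.11 to 0.53. Of all genes, 165 to 2628 were higher and 82 to 3534 lower. Without IKKb(EE)IEC replicate 1 the 10 had adjusted p of 0.0589 to 0.147 by limma, and the cause was not tested.

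Reversals touched only members that did not pass as reported. Mvk was at -0.035 with normexp, -0.083 with capped normexp and -0.018 in the authors' table, and at -0.026 to 0.67 without 1 array. Tm7sf2 was at 0.015 with the median shift, 0.20 with capped normexp and 0.021 in the authors' table. Acss2 was at -0.013 with normexp, -0.025 with capped normexp and -0.36 with the mean of probes, and at -0.031 to 0.092 without 1 array (-0.0029 without WT replicate 1). Elovl5 was at -0.0042 with quantile normalization and at -0.065 to 0.078 without 1 array. Acacb was at -0.018 with capped normexp and at -0.0067 to 0.88 without 1 array. Sc5d was at 0.034 with capped normexp and Stard4 at -0.017 with the mean of probes. Without 1 array, Elovl6 was at -0.70 to 0.16 and Dhcr7 at -0.12 to 0.41. The cause was not tested. With 2 arrays a genotype, and WT signals of several probes at background, small changes could not be measured.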
